A study of Mus musculus with 9 samples.

Results

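Cytochrome P450 enzymes are haem proteins that oxidise fatty acids, retinoids, sterols and foreign compounds. Their genes were described here in mouse skin. Members were the genes whose symbol has the form Cyp, family number, subfamily letters and gene number. The pattern matched 95 of the 54456 genes in the deposited table. The rule left out 1 of these, which is not analysed here, so that there were 94 members. A further 40 Cyp entries of other name forms (Cyp51, pseudogenes and names that end in a letter) were outside the pattern. The mean level reached at least 1 CPM (counts adjusted for sequencing depth) over the 9 libraries for 31 members. Results by name are mainly for these. Some members under 1 CPM, such as Cyp26a1, Cyp8b1 and Cyp11a1, are also named, and their calls were not checked under other settings. At the threshold, Cyp2j12 (1.47 CPM) and Cyp2u1 (1.44 CPM) were the lowest inside, and Cyp46a1 (0.937 CPM), Cyp2b23 (0.824 CPM) and Cyp11a1 (0.815 CPM) the highest outside.

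The RNA came from lesions that resemble alopecia areata, an immune-mediated hair loss. The 9 libraries formed 3 groups of 3: lesions given microneedles (MN, a patch of short needles) loaded with the cytokine IL-2 and the chemokine CCL22, lesions given empty MN, and untreated lesions. These are called loaded, empty and untreated. The labels give no strain, sex, age, dose, day of sampling or batch. Whether libraries within a group represent different mice is not stated, so every p-value rests on variation from library to library that could be purely technical. Animal, skin site and treatment cannot be told apart.

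Most P450 enzymes sit in the endoplasmic reticulum and take electrons from the reductase Por, whereas those of mitochondria take them from ferredoxin. In skin, P450 enzymes of the epidermis make epoxides and hydroxylated products of arachidonic acid, the Cyp26 enzymes degrade retinoic acid, and a set of sterol hydroxylases activates vitamin D. Others are known mainly from liver, where they clear drugs and solvents.

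Promoters are shown for 6 members, 3 pairs whose members are contrasted below: Cyp2e1 and Cyp2f2, the 2 members past 1.5-fold higher in loaded than in empty libraries, Cyp2b10 and Cyp2b19, close relatives with different patterns, and Cyp1a1 and Cyp1b1, known targets of the aryl hydrocarbon receptor. Each is the 250 bases before the start of the gene, 5′ to 3′ on the gene's strand, from RefSeq (GRCm38.p6). Capitals mark 3 motifs on either strand, which are the TATA box TATAAA, the related CATAAAA (the pair share ATAAA) and GCGTG, the core bound by the aryl hydrocarbon receptor.
Cyp2e1: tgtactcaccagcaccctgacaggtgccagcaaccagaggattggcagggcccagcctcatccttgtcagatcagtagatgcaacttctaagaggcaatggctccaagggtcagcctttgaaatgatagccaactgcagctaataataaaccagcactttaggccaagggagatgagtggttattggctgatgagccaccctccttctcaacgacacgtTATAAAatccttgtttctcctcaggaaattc
Cyp2f2: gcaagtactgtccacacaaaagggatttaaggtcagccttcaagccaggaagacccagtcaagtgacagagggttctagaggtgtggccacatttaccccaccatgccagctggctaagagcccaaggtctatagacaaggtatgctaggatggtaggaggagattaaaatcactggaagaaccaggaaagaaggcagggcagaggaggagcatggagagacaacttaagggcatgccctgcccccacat
Cyp2b10: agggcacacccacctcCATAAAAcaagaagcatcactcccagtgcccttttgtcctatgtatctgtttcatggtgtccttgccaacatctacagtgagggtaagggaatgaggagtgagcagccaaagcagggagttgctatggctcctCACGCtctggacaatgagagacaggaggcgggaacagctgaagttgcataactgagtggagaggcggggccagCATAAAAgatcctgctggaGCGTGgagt
Cyp2b19: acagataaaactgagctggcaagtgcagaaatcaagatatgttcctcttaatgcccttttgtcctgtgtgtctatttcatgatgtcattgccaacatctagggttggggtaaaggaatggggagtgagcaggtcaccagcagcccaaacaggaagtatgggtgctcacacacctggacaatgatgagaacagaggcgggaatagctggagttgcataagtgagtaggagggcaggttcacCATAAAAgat
Cyp1a1: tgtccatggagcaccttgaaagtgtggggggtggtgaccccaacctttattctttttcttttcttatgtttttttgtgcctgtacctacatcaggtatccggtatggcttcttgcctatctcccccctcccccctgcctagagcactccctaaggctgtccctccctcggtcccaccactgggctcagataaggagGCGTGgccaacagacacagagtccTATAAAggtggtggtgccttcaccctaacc
Cyp1b1: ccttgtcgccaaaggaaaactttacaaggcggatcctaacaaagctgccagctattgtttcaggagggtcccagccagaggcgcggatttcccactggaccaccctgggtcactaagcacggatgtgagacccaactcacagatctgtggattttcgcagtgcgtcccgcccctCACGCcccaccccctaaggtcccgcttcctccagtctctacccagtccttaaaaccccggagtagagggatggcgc

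These windows lie at chr7:140763569-140763818, plus strand, for Cyp2e1, at chr7:27119705-27119954, plus strand, for Cyp2f2, at chr7:25897408-25897657, plus strand, for Cyp2b10, and at chr7:26756892-26757141, plus strand, for Cyp2b19. Those of Cyp1a1 and Cyp1b1 lie at chr9:57697363-57697612, plus strand, and chr17:79715062-79715311, minus strand. Aligned end to end, the Cyp2b10 and Cyp2b19 windows were identical at 180 of 231 aligned bases (77.9%), against 56.3% for Cyp2e1 with Cyp2f2 and 47.9% for Cyp1a1 with Cyp1b1. TATAAA began 31 bases before the start of Cyp2e1 and 30 before that of Cyp1a1. The Cyp2b10 and Cyp2b19 windows held CATAAAA, a motif picked after the sequences were seen, which began 28 bases before the Cyp2b10 start and 10 before the Cyp2b19 start, with a further Cyp2b10 match at 234. The window of Cyp2f2 held none of the capitalised motifs.

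In all, 8 motifs were searched on both strands in the 24 of 31 members with a RefSeq promoter and in all 27025 genes with one. TATAAA was in 3 of 24 members (14.3% of all genes), GCGTG in 9 (30.9%), CCAAT in 10 (37.5%), GGGCGG in 10 (35.4%), CACGTG in 2 (6.86%) and CATAAAA in 2, Cyp2b10 and Cyp2b19 (4.43%). TTATGTAA, the D box, was in 0 of 24 members (0.977% of all genes), and so was the direct-repeat retinoic acid response element (0.0259%). The retinoic acid response element was searched only as an exact repeat with 5 free bases between its copies, found in 7 of the 27025 genes. Forms of this element with other letters or other spacings were not searched, so the members' windows may hold them. A match describes the letters in the window and shows no binding.

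Library totals ran from 85962714 to 96740589 counts, and P450 members held 0.0576% to 0.0768% of them. For library pairs within a group, the median squared difference over genes was 1.81 to 3.55 times that of counting noise. For pairs between groups it was 7.65 to 16.0 times. Introns were counted with exons and the strand setting is unknown, so a member's count can hold reads of a gene that overlaps it. Of the 31 members, 4 overlapped a gene with counts (Cyp2f2, Cyp2s1, Cyp2u1 and Cyp4v3). Cyp2b13, Cyp4f16 and Cyp4f37 had under 80% of their transcript's 50-base words to themselves, and their counts are uncertain, since close copies can share reads.

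Summed over all 94 members, the P450 level was 564 to 575 CPM in the loaded libraries, 724 to 756 CPM in the empty libraries and 604 to 619 CPM in the untreated libraries, so that the empty libraries stood above both other groups. Cyp2b19 alone held 26.6% to 26.9% of the sum in the loaded libraries, 37.3% to 39.5% in the empty and 25.4% to 26.6% in the untreated libraries. Without it the sum was 412 to 422 CPM in the loaded, 454 to 457 CPM in the empty and 449.8 to 462 CPM in the untreated libraries, and the empty and untreated ranges overlapped. Per kb of transcript, a scale on which genes can be compared, mean levels over the 9 libraries were highest for Cyp2b19 (72.1 CPM per kb), Cyp2b10 (23.9), Cyp2j6 (17.2), Cyp4f13 (13.1), Cyp2s1 (10.2) and Cyp27a1 (10.1). The intron reads in these counts raise genes with long introns on that scale.

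**Figure D1:**
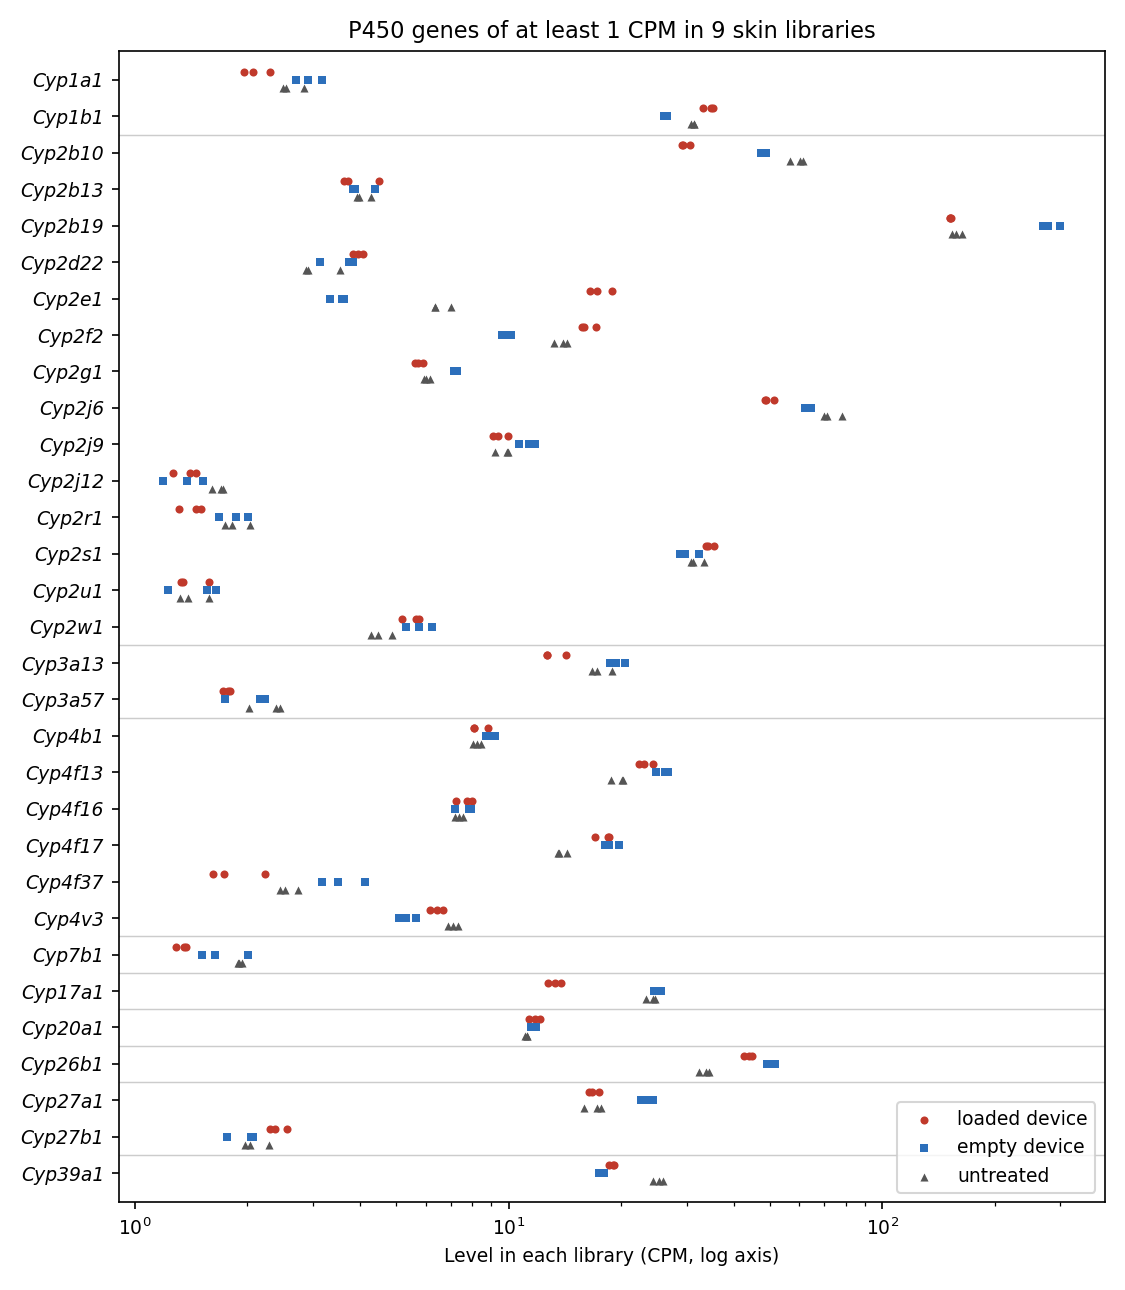
Level of the 31 P450 genes of at least 1 CPM in each of the 9 libraries (horizontal log axis, CPM; red circles loaded, blue squares empty, grey triangles untreated; grey lines separate families). Cyp2e1 shows 3 separate groups with loaded highest, and Cyp2b19 lies far to the right with the empty libraries apart from both other groups.

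Of the 31 members, 9 were higher and 10 lower in loaded than in untreated lesions (edgeR's quasi-likelihood test, Benjamini-Hochberg adjusted p under 0.05), 61.3% against 60.1% of all tested genes of at least 1 CPM. By direction, 29.0% of members were higher, against 27.8% of those genes, and 32.3% were lower, against 32.3%. The members' shares were thus near the background, and their median log2 fold change was -0.034, against -0.0059 over those genes. Past 1.5-fold there were 1 higher member (Cyp2e1; background 0.470%) and 2 lower members (Cyp2b10 and Cyp17a1; background 6.18%). When scaled by library size alone, under which the median log2 fold change of all genes was 0.12, members split 14 higher and 7 lower, and the share of all calls that were higher was 68.1% in place of 44.9%.

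Between loaded and empty lesions, 6 members were higher and 14 lower, 64.5% called against a background of 58.1%. Members were lower in 45.2%, against 25.0% of all tested genes of at least 1 CPM, and higher in 19.4%, against 33.0%. Their median log2 fold change was -0.10, against 0.038 over those genes. Past 1.5-fold were 2 higher members (Cyp2e1 and Cyp2f2; background 4.52%) and 4 lower members (Cyp2b10, Cyp2b19, Cyp17a1 and Cyp4f37; background 4.53%). Upper-quartile scaling gave 5 higher and 15 lower members, and a share of higher calls over all genes of 44.4% in place of 55.3%.

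Between empty and untreated lesions, 10 members were higher and 7 lower, 54.8% called against a background of 67.0%. Members were higher in 32.3%, against 28.2%, and lower in 22.6%, against 38.8%. The median log2 fold change of members was 0.051, against -0.039. Past 1.5-fold were 2 higher members (Cyp2b19 and Cyp26b1; background 1.80%) and 1 lower member (Cyp2e1; background 10.4%). With library size alone the members split 16 higher and 7 lower, and the share of higher calls over all genes was 57.9%, against 41.7% with TMM scaling and 53.0% with upper-quartile scaling. Each pair of these comparisons shares 1 group of libraries, so the 3 sets of fold changes are not independent.

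Over the 3 comparisons, 9 members were called in all 3, 13 in 2, 3 in 1 and 6 in none (Cyp20a1, Cyp2b13, Cyp2j12, Cyp2u1, Cyp4b1 and Cyp4f16). The same counts over all genes were not made, so these have no background and describe the members only. With library size alone, Cyp20a1 and Cyp4f16 were called higher in loaded than in untreated lesions (edgeR adjusted p = 0.00174 and 0.0238). Cyp20a1 was then also called higher in empty than in untreated lesions (log2 0.17, edgeR adjusted p = 0.00968; with upper-quartile scaling 0.13, edgeR adjusted p = 0.037), and so was Cyp4f16 (log2 0.16, edgeR adjusted p = 0.0488). All 3 loaded libraries lay below the other 6 for 10 members (background 13.7% of tested genes of at least 1 CPM) and above them for 6 (17.5%). All 3 empty libraries lay above the rest for 7 members (18.6%) and below for 5 (26.3%), and the untreated libraries above for 5 (25.7%) and below for 5 (16.5%). The Cyp2 family, with 14 of the 31, had 5 members higher and 3 lower in loaded than in untreated lesions (background 27.8% and 32.3%). Against empty lesions, 3 were higher and 6 lower (33.0% and 25.0%). Between empty and untreated lesions, 4 were higher and 4 lower (28.2% and 38.8%). These small counts were not tested against the background.

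**Figure D2:**
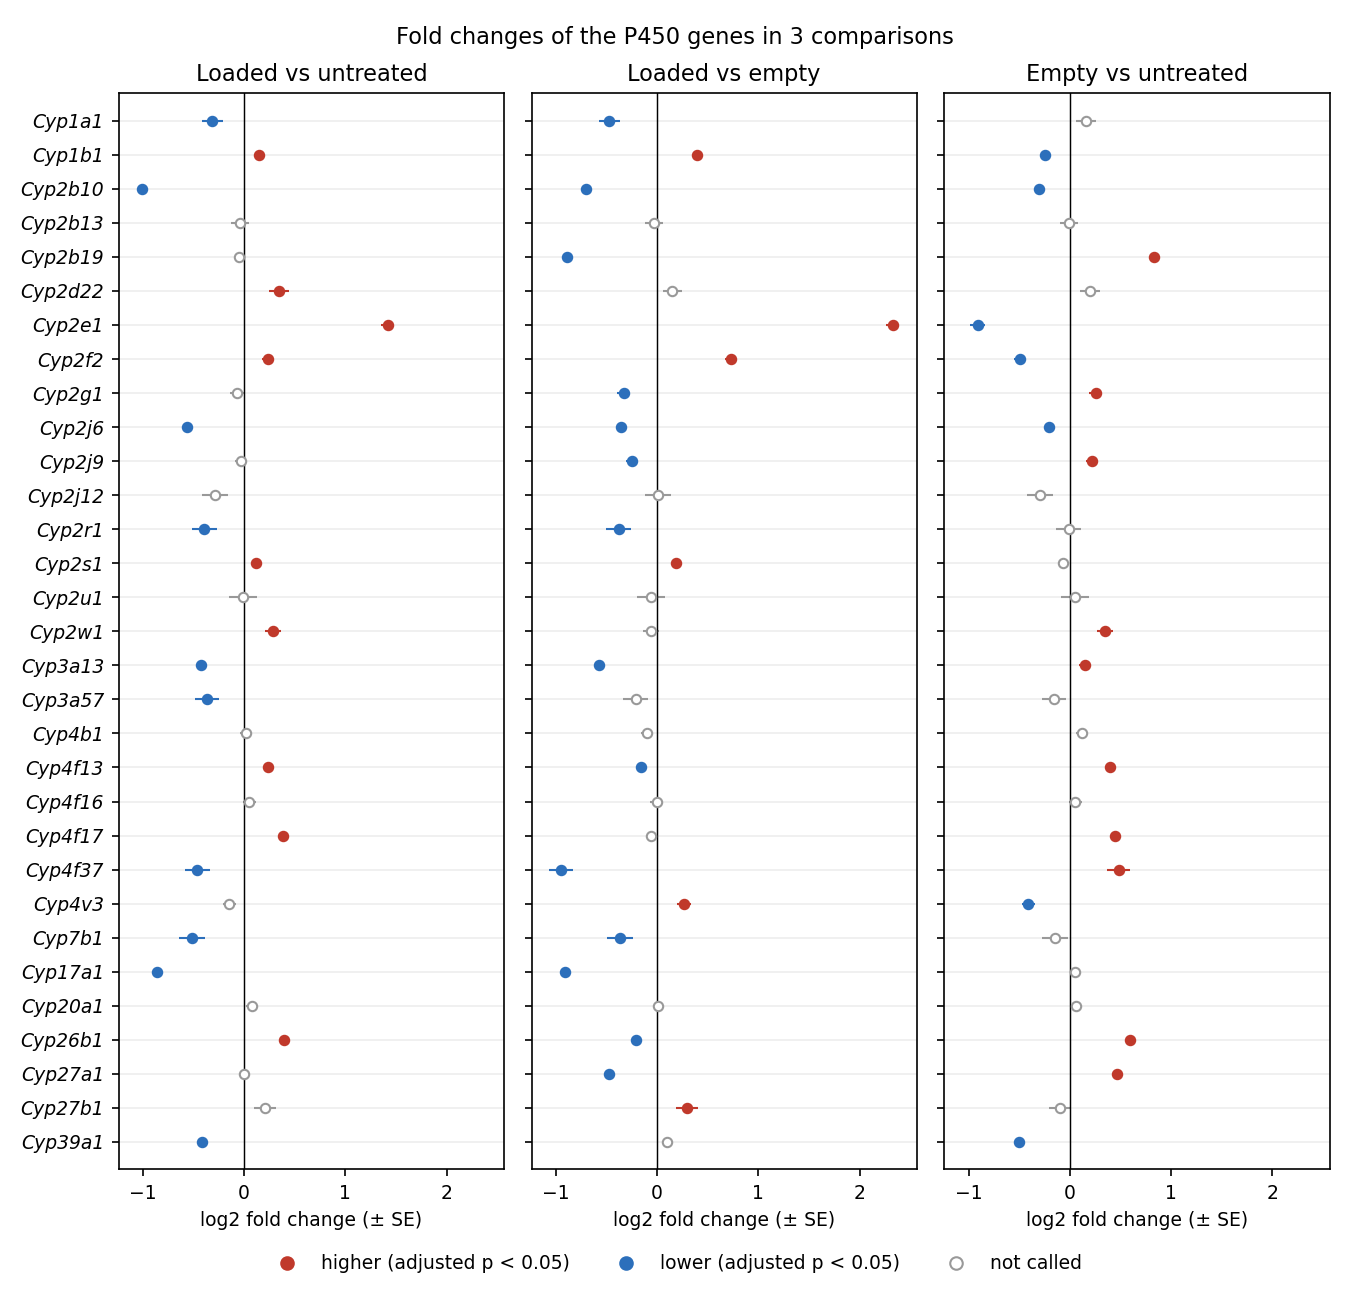
Log2 fold change ± SE of the 31 P450 genes of at least 1 CPM (rows) in the 3 comparisons (panels); red is higher and blue lower at an edgeR adjusted p under 0.05, open circles are not called. Cyp2e1 has the largest values, 1.42 and 2.33 in the loaded comparisons and -0.91 between empty and untreated lesions.

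Among enzymes known for foreign compounds, Cyp2e1, which oxidises ethanol and other small solvents and is best known from liver, had 16.6, 17.3 and 18.9 CPM in the loaded libraries, 3.62, 3.58 and 3.32 CPM in the empty libraries and 7.01, 6.37 and 6.37 CPM in the untreated libraries. The 3 groups did not overlap, with loaded highest and empty lowest. Cyp2e1 (chr7:140343652-140354900, mm39) was 5.01-fold higher in loaded than in empty lesions, a log2 fold change of 2.33 ± 0.067 (SE; edgeR adjusted p = 4.35e-20). It was also higher in loaded than in untreated lesions, at a log2 fold change of 1.42 ± 0.063 (SE; edgeR adjusted p = 2.89e-16), and lower in empty than in untreated lesions, at a log2 fold change of -0.91 ± 0.073 (SE; edgeR adjusted p = 2.36e-11). All 3 calls held without any one library.

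Cyp2f2 (chr7:26819334-26833085), known for activating naphthalene in the mouse lung, had 15.7, 15.9 and 17.1 CPM in the loaded libraries, 9.58, 10.1 and 9.77 CPM in the empty libraries and 14.0, 14.3 and 13.3 CPM in the untreated libraries. Its groups took the same order and did not overlap. The log2 fold change was 0.73 ± 0.053 (SE; edgeR adjusted p = 4.2e-12) against empty and 0.23 ± 0.052 (SE; edgeR adjusted p = 0.000543) against untreated lesions, and -0.49 ± 0.054 (SE; edgeR adjusted p = 8.07e-09) between empty and untreated lesions. An overlapping gene, Gm15883, held 86 counts over the 9 libraries against 10807 for Cyp2f2.

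Adipocyte markers moved in the same order. Their summed level was 1294 to 1348 CPM in the loaded libraries, 747 to 803 CPM in the empty libraries and 1113 to 1199 CPM in the untreated libraries. Of these markers, 12 of 12 were higher in loaded than in empty lesions, 9 of 12 higher than in untreated lesions, and 10 of 12 lower in empty than in untreated lesions. The backgrounds for these directions are 33.0%, 27.8% and 38.8% of tested genes of at least 1 CPM. None of the 12 was at 0, and Adipoq, the fat-cell hormone adiponectin, averaged 32.9 ± 2.14, 10.3 ± 0.280 and 22.6 ± 1.56 CPM (SD, n = 3 each) in loaded, empty and untreated libraries. Hair matrix markers summed to 15999.9 to 17053 CPM in the loaded libraries, 9048 to 10296 CPM in the empty libraries and 14261 to 14446 CPM in the untreated libraries. Melanocyte markers summed to 592 to 649 CPM in the loaded libraries, 303 to 336 CPM in the empty libraries and 574 to 599 CPM in the untreated libraries. Of these 10 markers, 9 were higher in loaded than in empty lesions, and 9 lower in empty than in untreated lesions. Between loaded and untreated lesions they were split, 5 higher and 4 lower (backgrounds 27.8% and 32.3%), and the summed ranges overlapped. Liver markers were low: they summed to 11.8 to 13.0 CPM in the loaded libraries, 13.5 to 15.8 CPM in the empty libraries and 10.6 to 11.8 CPM in the untreated libraries. Most of it was Apoh, and Alb averaged 0.426 ± 0.0581, 0.237 ± 0.0117 and 0.291 ± 0.0674 CPM in the same order. Their part in the levels of Cyp2e1 and Cyp2f2 was not tested. In bulk tissue, fewer cells of a type and less RNA per cell cannot be told apart.

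**Figure D3:**
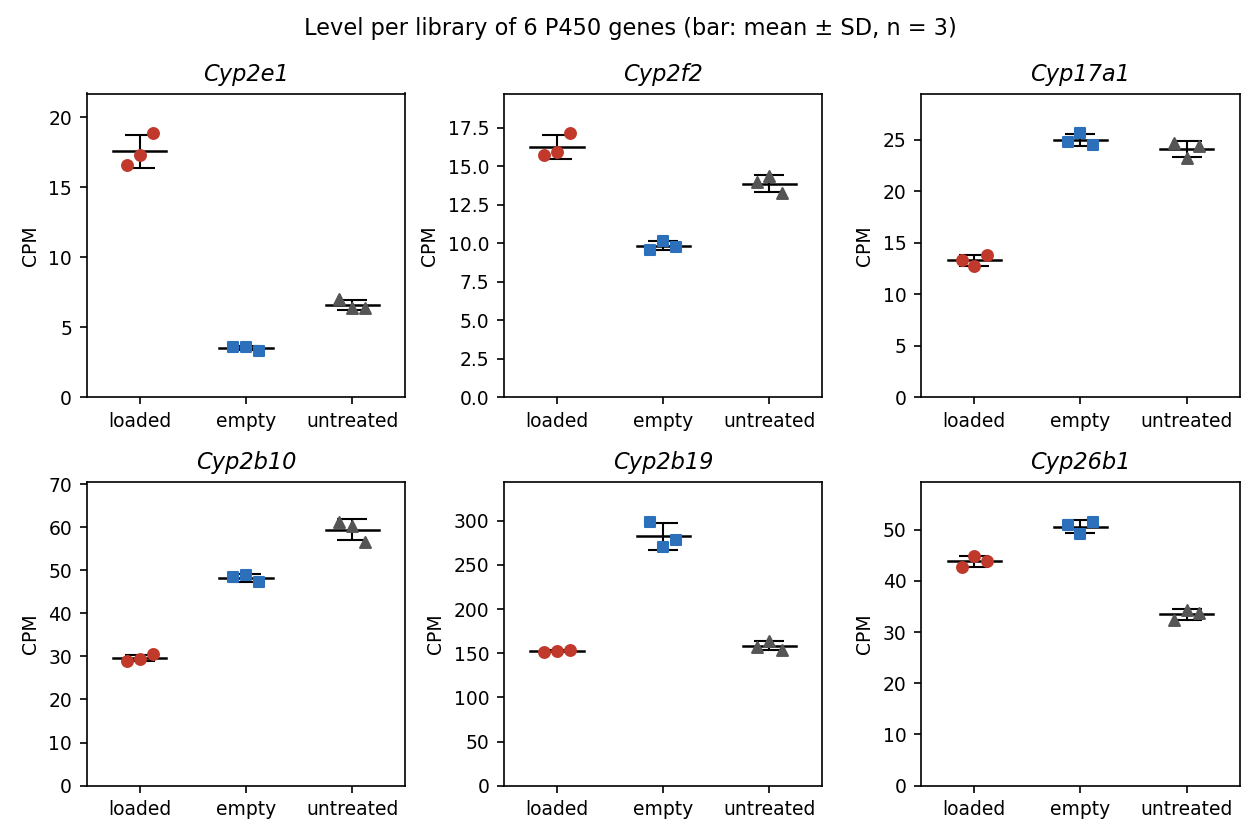
Level (CPM, axis from 0) of Cyp2e1, Cyp2f2, Cyp17a1, Cyp2b10, Cyp2b19 and Cyp26b1 in each library; each point is 1 library, and bars are the mean ± SD of 3. Cyp2e1 and Cyp2f2 are highest in the loaded libraries, Cyp17a1 and Cyp2b10 lowest there, and Cyp2b19 and Cyp26b1 highest in the empty libraries.

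The Cyp1 genes, which oxidise polycyclic hydrocarbons, went opposite ways. Cyp1a1 (chr9:57595211-57611107) had 1.96, 2.30 and 2.07 CPM in the loaded libraries, 3.18, 2.70 and 2.91 CPM in the empty libraries and 2.83, 2.49 and 2.54 CPM in the untreated libraries. The loaded libraries lay below the other 6, while empty and untreated libraries overlapped. Its log2 fold change was -0.47 ± 0.10 (SE; edgeR adjusted p = 0.000409) against empty and -0.31 ± 0.11 (SE; edgeR adjusted p = 0.0182) against untreated lesions. The second call ended with library size alone (log2 -0.18, edgeR adjusted p = 0.174), and without loaded library 1 (log2 -0.26, edgeR adjusted p = 0.0943), loaded library 3 (log2 -0.30, edgeR adjusted p = 0.057) or untreated library 1 (log2 -0.26, edgeR adjusted p = 0.0918). Between empty and untreated lesions the value was 0.16 ± 0.10 (SE; edgeR adjusted p = 0.206), not called, but called higher with library size alone (log2 0.26, edgeR adjusted p = 0.0302).

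Cyp1b1 (chr17:80008966-80022490), which also hydroxylates oestrogens, had 35.3, 33.2 and 34.9 CPM in the loaded libraries, 26.1, 26.5 and 26.0 CPM in the empty libraries and 31.3, 31.4 and 30.7 CPM in the untreated libraries. The groups did not overlap, with loaded highest and empty lowest. It was higher at a log2 fold change of 0.39 ± 0.037 (SE; edgeR adjusted p = 7.87e-10) against empty lesions, and at 0.15 ± 0.037 (SE; edgeR adjusted p = 0.00206) against untreated lesions. It was lower at a log2 fold change of -0.25 ± 0.038 (SE; edgeR adjusted p = 2.48e-06) in empty than in untreated lesions. The receptor gene Ahr averaged 45.5 ± 0.901, 61.7 ± 2.84 and 46.0 ± 1.42 CPM (SD, n = 3 each) in loaded, empty and untreated libraries, and fell by 0.44 on the log2 scale in loaded against empty lesions (edgeR adjusted p = 5.9e-11). Of the 9 tested genes of the receptor's axis, 0 were higher and 5 lower in loaded than in empty lesions, 2 higher and 3 lower than in untreated lesions, and 6 higher and 3 lower between empty and untreated lesions. In that order 55.6%, 55.6% and 100% were called in either direction, against a background of 58.1%, 60.1% and 67.0% of tested genes of at least 1 CPM. This and the other gene lists may also hold tested genes under 1 CPM. The median log2 fold changes were -0.16, -0.087 and 0.13, against 0.015, -0.014 and -0.016 over all tested genes. The repressor Ahrr fell with Ahr in loaded against empty lesions (log2 -0.56 ± 0.11, edgeR adjusted p = 0.000196), and so did the aldehyde dehydrogenase Aldh3a1 (log2 -0.50 ± 0.038, edgeR adjusted p = 9.6e-12).

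The Cyp3a genes metabolise drugs and steroids. Cyp3a13 averaged 13.2 ± 0.913, 19.5 ± 0.930 and 17.7 ± 1.14 CPM (SD, n = 3 each) in loaded, empty and untreated libraries, and was lower in loaded lesions at a log2 fold change of -0.57 ± 0.056 (SE; edgeR adjusted p = 1.93e-09) against empty and -0.42 ± 0.057 (SE; edgeR adjusted p = 6.14e-07) against untreated lesions. It was higher in empty than in untreated lesions at a log2 fold change of 0.15 ± 0.055 (SE; edgeR adjusted p = 0.0285), a call that ended without empty library 1 (log2 0.15, edgeR adjusted p = 0.0614), untreated library 2 (log2 0.11, edgeR adjusted p = 0.166) or untreated library 3 (log2 0.13, edgeR adjusted p = 0.103). Cyp3a57 was lower in loaded than in untreated lesions (log2 fold change -0.37 ± 0.12, SE; edgeR adjusted p = 0.0132), but not with library size alone (log2 -0.24, edgeR adjusted p = 0.111) or without untreated library 3 (log2 -0.32, edgeR adjusted p = 0.065). Against empty lesions it was not called (log2 fold change -0.21 ± 0.12, SE; edgeR adjusted p = 0.168) but was called lower without empty library 2 (log2 -0.32, edgeR adjusted p = 0.043).

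Cyp2b19, an arachidonic acid epoxygenase of keratinocytes (chr7:26456567-26472055), had 152, 152 and 153 CPM in the loaded libraries, 299, 270.0 and 278 CPM in the empty libraries and 157, 164 and 154 CPM in the untreated libraries. The empty libraries stood clear above both other groups. The log2 fold change was -0.89 ± 0.036 (SE; edgeR adjusted p = 4.89e-17) for loaded against empty lesions and 0.83 ± 0.036 (SE; edgeR adjusted p = 1.07e-16) for empty against untreated lesions, whereas loaded against untreated gave a log2 fold change of -0.055 ± 0.036 (SE; edgeR adjusted p = 0.244), not called. All 3 results held without any one library.

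Cyp2b10 (chr7:25597045-25626049), known in liver as a target of the drug-sensing receptor CAR, had 29.0, 29.3 and 30.5 CPM in the loaded libraries, 48.4, 48.9 and 47.3 CPM in the empty libraries and 61.3, 60.4 and 56.7 CPM in the untreated libraries. Here the groups took another order, loaded lowest and untreated highest, with no overlap. It was 2.01-fold lower in loaded than in untreated lesions, a log2 fold change of -1.004 ± 0.037 (SE; edgeR adjusted p = 7.04e-18). Loaded against empty lesions gave a log2 fold change of -0.70 ± 0.037 (SE; edgeR adjusted p = 6.47e-15). Between empty and untreated lesions it was lower as well, at -0.30 ± 0.036 (SE; edgeR adjusted p = 3.46e-08). Cyp2b13, another gene of the subfamily, had log2 fold changes of -0.041, -0.031 and -0.010 for loaded against untreated, loaded against empty and empty against untreated lesions, none called.

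Keratinocyte markers summed to 32718 to 34800.2 CPM in the loaded libraries, 53094 to 54490.0 CPM in the empty libraries and 45491 to 46835 CPM in the untreated libraries, highest in the empty libraries as Cyp2b19 was. Of the 12, 9 were lower and 1 higher in loaded than in empty lesions. For empty against untreated lesions, 6 were lower and 5 higher. The backgrounds for these directions, in that order, are 25.0%, 33.0%, 38.8% and 28.2% of tested genes of at least 1 CPM. For loaded against untreated lesions, where Cyp2b19 was not called, 10 of the 12 were lower and 1 higher (backgrounds 32.3% and 27.8%). None of the 12 was at 0. Lor, a protein of the cornified layer, averaged 1458 ± 37.4, 2957 ± 162 and 1611 ± 81.9 CPM (SD, n = 3 each) in loaded, empty and untreated libraries, and Krt14, of the basal layer, 3581 ± 118, 4064 ± 144 and 7223 ± 452 CPM. Sebaceous gland markers summed to 562 to 567 CPM in the loaded libraries and 717 to 742 CPM in the empty libraries. In the untreated libraries they summed to 589.8 to 598 CPM. Of these 12 markers, 8 were lower and 3 higher in loaded than in empty lesions. For empty against untreated lesions they were split, 3 lower and 4 higher, against the backgrounds just given. For loaded against untreated lesions, 7 were lower and 3 higher. Skeletal muscle markers were also highest in the empty libraries (7339 to 7879 CPM in the loaded, 10082 to 11793 CPM in the empty and 8165 to 8405.5 CPM in the untreated libraries). Of these 12, 9 were lower and 2 higher in loaded than in empty lesions. Between empty and untreated lesions, 1 was lower and 9 higher, and between loaded and untreated lesions 8 were lower and 2 higher. The order of Cyp2b10, lowest in loaded and highest in untreated libraries, was that of the injured epidermis list (2302 to 2342 CPM in the loaded libraries, 2577 to 2866 CPM in the empty libraries and 4197 to 4551 CPM in the untreated libraries). The order was also that of the macrophage list (227 to 244 CPM in the loaded libraries, 285 to 293 CPM in the empty libraries and 335 to 352 CPM in the untreated libraries), the T cell list (26.6 to 28.0 CPM in the loaded libraries, 31.0 to 33.4 CPM in the empty libraries and 40.6 to 43.5 CPM in the untreated libraries) and the fibroblast list (1131 to 1164 CPM in the loaded libraries, 1454 to 1563 CPM in the empty libraries and 1669 to 1724 CPM in the untreated libraries), with no listed marker at 0. Their part in the Cyp2b results was not tested.

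The Cyp2j enzymes also make arachidonic acid epoxides. Cyp2j6 averaged 49.6 ± 1.55, 63.3 ± 0.987 and 73.1 ± 4.46 CPM (SD, n = 3 each) in loaded, empty and untreated libraries. It was lower at a log2 fold change of -0.56 ± 0.038 (SE; edgeR adjusted p = 2.14e-12) against untreated and -0.35 ± 0.038 (SE; edgeR adjusted p = 1.02e-08) against empty lesions. It was lower at a log2 fold change of -0.21 ± 0.038 (SE; edgeR adjusted p = 3.5e-05) in empty than in untreated lesions. Its neighbour Cyp2j9 took the order of Cyp2b19 instead: 9.48 ± 0.442, 11.3 ± 0.561 and 9.71 ± 0.417 CPM, with a log2 fold change of -0.25 against empty lesions and 0.21 between empty and untreated lesions. Cyp2j12 was not called in any comparison, but was called lower in empty than in untreated lesions without empty library 2 (log2 -0.38, edgeR adjusted p = 0.0319).

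The Cyp4f enzymes hydroxylate leukotrienes and long fatty acids at the end of the chain. Cyp4f13 and Cyp4f17 were higher in loaded than in untreated lesions, at a log2 fold change of 0.24 ± 0.046 (SE; edgeR adjusted p = 0.000113) and 0.38 ± 0.051 (SE; edgeR adjusted p = 4.49e-07), and in empty than in untreated lesions, at a log2 fold change of 0.39 ± 0.046 (SE; edgeR adjusted p = 3.02e-08) and 0.44 ± 0.050 (SE; edgeR adjusted p = 1.78e-08). Between loaded and empty lesions, Cyp4f13 gave a log2 fold change of -0.15 ± 0.045 (SE; edgeR adjusted p = 0.00616), not called without loaded library 2 (log2 -0.12, edgeR adjusted p = 0.0634), and Cyp4f17 gave a log2 fold change of -0.062 ± 0.049 (SE; edgeR adjusted p = 0.346), not called. Cyp4f37 had 1.62, 1.73 and 2.23 CPM in the loaded libraries, 4.13, 3.50 and 3.17 CPM in the empty libraries and 2.44, 2.74 and 2.53 CPM in the untreated libraries. The groups did not overlap, with loaded lowest and empty highest. Its log2 fold change was -0.95 ± 0.12 (SE; edgeR adjusted p = 1.25e-07) against empty, -0.46 ± 0.12 (SE; edgeR adjusted p = 0.00294) against untreated and 0.48 ± 0.11 (SE; edgeR adjusted p = 0.000729) between empty and untreated lesions, on a count that can hold reads of Cyp4f16, which was not called in any comparison.

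Cyp4b1, a fatty acid hydroxylase that also activates lung toxicants, had 8.09, 8.81 and 8.11 CPM in the loaded libraries, 8.71, 8.90 and 9.20 CPM in the empty libraries and 8.22, 8.05 and 8.44 CPM in the untreated libraries. The groups overlapped or lay side by side, and none of the 3 comparisons called it (0.018 ± 0.061 for loaded against untreated, -0.10 ± 0.060 for loaded against empty and 0.12 ± 0.060 for empty against untreated lesions; SE). Library size alone called it higher in loaded than in untreated lesions (log2 0.15, edgeR adjusted p = 0.047) and in empty than in untreated lesions (log2 0.22, edgeR adjusted p = 0.0032). The second of these was also called with DESeq2 size factors (log2 0.15, edgeR adjusted p = 0.0448), upper-quartile scaling (log2 0.19, edgeR adjusted p = 0.0104) and the filter of at least 1 CPM in 3 libraries (log2 0.17, edgeR adjusted p = 0.016). Cyp4b1 was called lower in loaded than in empty lesions with upper-quartile scaling (log2 -0.15, edgeR adjusted p = 0.0441) and that filter (log2 -0.14, edgeR adjusted p = 0.0439). Cyp4v3, whose human counterpart is a fatty acid hydroxylase of the eye, was higher at a log2 fold change of 0.26 ± 0.068 (SE; edgeR adjusted p = 0.00231) in loaded than in empty lesions and lower at a log2 fold change of -0.41 ± 0.068 (SE; edgeR adjusted p = 1.04e-05) in empty than in untreated lesions.

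Of 21 tested genes on the list of other arachidonic acid enzymes, 3 were higher and 10 lower in loaded than in untreated lesions, 5 higher and 11 lower than in empty lesions, and 8 higher and 9 lower between empty and untreated lesions. The shares called, 61.9%, 76.2% and 81%, stand against a background of 60.1%, 58.1% and 67.0% of tested genes of at least 1 CPM, and the median log2 fold changes were -0.093, -0.10 and -0.062. The epidermal lipoxygenase Aloxe3 averaged 133 ± 3.20, 243 ± 10.7 and 128 ± 3.91 CPM (SD, n = 3 each) in loaded, empty and untreated libraries. It was highest in the empty libraries, as Cyp2b19 was. Its log2 fold change was -0.87 ± 0.035 (SE; edgeR adjusted p = 4.82e-17) for loaded against empty lesions. Its partner Alox12b gave a log2 fold change of -0.54 ± 0.032 (SE; edgeR adjusted p = 6.7e-14), and the prostaglandin D synthase Ptgds gave a log2 fold change of 1.02 ± 0.040 (SE; edgeR adjusted p = 2.9e-17).

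**Figure D4:**
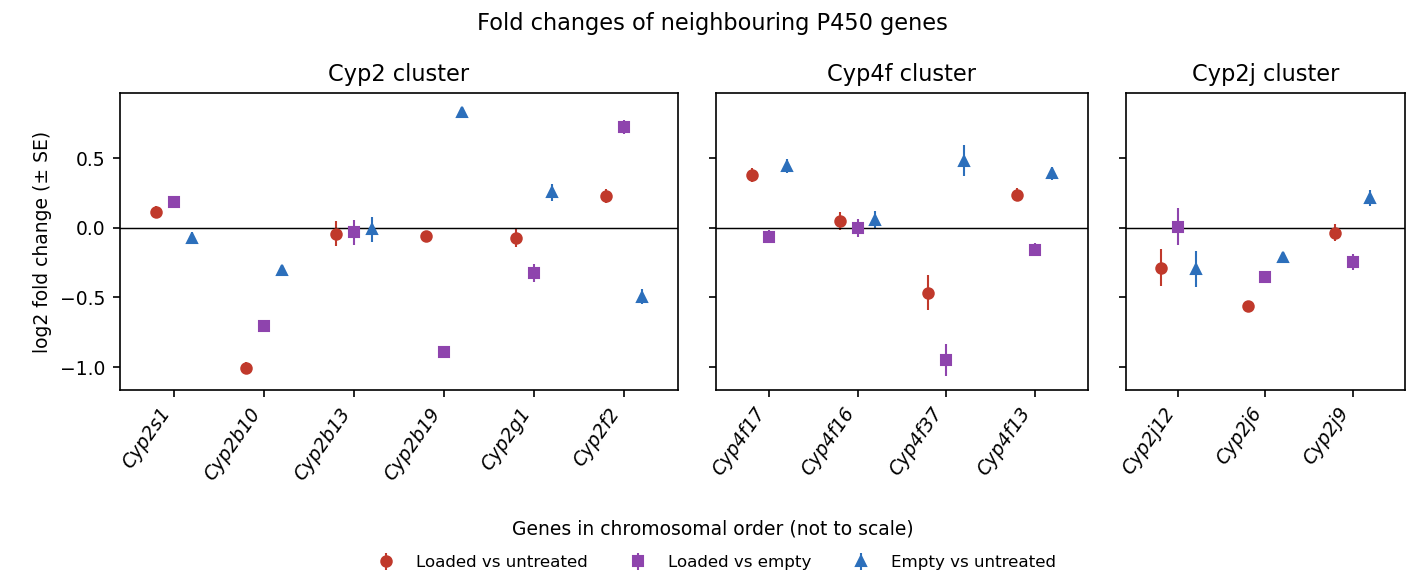
Log2 fold change ± SE (vertical axis) of neighbouring P450 genes of at least 1 CPM in 3 chromosomal clusters (panels; genes in order, not to scale) in the 3 comparisons (colours and shapes). Neighbours differ: in the Cyp2 cluster Cyp2b19 has -0.89 and Cyp2f2 0.73 for loaded against empty lesions.

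Neighbouring genes did not share 1 pattern. In mm39, 6 of the 31 members lie in a Cyp2 cluster at chr7:25501900-26833085, 4 in a Cyp4f cluster at chr17:32725024-33166376 and 3 in a Cyp2j cluster at chr4:95987555-96479815. In the first, for loaded against empty lesions, Cyp2f2 and Cyp2s1 were higher, Cyp2b10, Cyp2b19 and Cyp2g1 lower, and Cyp2b13 was not called. Cyp2g1, best known from the olfactory mucosa, had a log2 fold change of -0.33 ± 0.064 (SE; edgeR adjusted p = 0.000111). Cyp2s1, a dioxin-inducible gene of epithelia, gave a log2 fold change of 0.19 ± 0.043 (SE; edgeR adjusted p = 0.000646) against empty and 0.12 ± 0.043 (SE; edgeR adjusted p = 0.0299) against untreated lesions. The second of these Cyp2s1 calls ended without loaded library 1 (log2 0.12, edgeR adjusted p = 0.0576), loaded library 2 (log2 0.092, edgeR adjusted p = 0.161), untreated library 1 (log2 0.093, edgeR adjusted p = 0.113) or untreated library 2 (log2 0.10, edgeR adjusted p = 0.111). Between empty and untreated lesions Cyp2s1 was not called, but without empty library 1 it was called lower (log2 -0.12, edgeR adjusted p = 0.0285).

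Retinoic acid is degraded by the Cyp26 enzymes. Cyp26b1 (chr6:84548396-84570890) had 42.8, 44.9 and 43.9 CPM in the loaded libraries, 51.0, 49.2 and 51.6 CPM in the empty libraries and 32.3, 34.4 and 33.7 CPM in the untreated libraries. The groups did not overlap, with empty highest and untreated lowest. It was higher in empty than in untreated lesions at a log2 fold change of 0.60 ± 0.036 (SE; edgeR adjusted p = 6.28e-14) and in loaded than in untreated lesions at a log2 fold change of 0.39 ± 0.036 (SE; edgeR adjusted p = 8.28e-10), and lower in loaded than in empty lesions at a log2 fold change of -0.21 ± 0.035 (SE; edgeR adjusted p = 1.74e-05). Cyp26a1, under 1 CPM and named after its values were seen, had 0.950, 0.778 and 0.927 CPM in the loaded libraries, 0.270, 0.399 and 0.321 CPM in the empty libraries and 0.450, 0.458 and 0.589 CPM in the untreated libraries. The order of loaded and empty was the opposite, with log2 fold changes of 1.42 ± 0.21 (SE; edgeR adjusted p = 1.8e-06) against empty, 0.82 ± 0.20 (SE; edgeR adjusted p = 0.00118) against untreated and -0.59 ± 0.23 (SE; edgeR adjusted p = 0.0314) between empty and untreated lesions.

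Of 25 genes for retinoid synthesis, binding and receptors, 6 were higher and 13 lower in loaded than in untreated lesions, 7 higher and 8 lower than in empty lesions, and 7 higher and 13 lower between empty and untreated lesions. In that order 76%, 60% and 80% were called, against a background of 60.1%, 58.1% and 67.0%. The median log2 fold changes were -0.26, -0.013 and -0.19, against -0.014, 0.015 and -0.016 over all tested genes. Stra6, the retinol uptake receptor, averaged 78.8 ± 4.66, 43.0 ± 2.12 and 56.4 ± 2.77 CPM (SD, n = 3 each) in loaded, empty and untreated libraries and was higher at a log2 fold change of 0.87 ± 0.046 (SE; edgeR adjusted p = 3.62e-12) in loaded than in empty lesions. Crabp2, which carries retinoic acid to its receptors, averaged 109 ± 3.21, 154 ± 5.92 and 155 ± 6.88 CPM and was lower at a log2 fold change of -0.50 ± 0.036 (SE; edgeR adjusted p = 5.26e-12). Aldh1a3, which makes retinoic acid, was higher at a log2 fold change of 0.62 ± 0.043 (SE; edgeR adjusted p = 1.44e-12) in the same comparison. Aldh1a1, of the same family, went the other way (log2 -0.80 ± 0.087, edgeR adjusted p = 1.5e-05). Aldh1a2 was not called there (log2 -0.21, edgeR adjusted p = 0.0853).

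For vitamin D, Cyp2r1 and Cyp27b1 perform the activating steps and Cyp24a1 the inactivating one. Cyp2r1 (chr7:114148917-114162207) had 1.45, 1.502 and 1.31 CPM in the loaded libraries, 2.01, 1.86 and 1.68 CPM in the empty libraries and 1.82, 1.74 and 2.03 CPM in the untreated libraries. The loaded libraries lay below the other 6. Cyp2r1 was lower at a log2 fold change of -0.39 ± 0.13 (SE; edgeR adjusted p = 0.0122) against untreated and -0.38 ± 0.12 (SE; edgeR adjusted p = 0.014) against empty lesions. The call of Cyp2r1 against untreated ended with library size alone (log2 -0.26, edgeR adjusted p = 0.0941) and without loaded library 3 (log2 -0.34, edgeR adjusted p = 0.0635) or untreated library 3 (log2 -0.33, edgeR adjusted p = 0.0699). That against empty ended without loaded library 3 (log2 -0.32, edgeR adjusted p = 0.0755) or empty library 1 (log2 -0.32, edgeR adjusted p = 0.0718).

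Cyp27b1 (chr10:126884119-126888875) had 2.37, 2.30 and 2.56 CPM in the loaded libraries, 2.04, 2.07 and 1.76 CPM in the empty libraries and 2.03, 2.28 and 1.97 CPM in the untreated libraries. The loaded libraries lay above the rest by a narrow margin. It was higher at a log2 fold change of 0.30 ± 0.11 (SE; edgeR adjusted p = 0.0269) against empty lesions, and not called against untreated lesions (log2 fold change 0.20 ± 0.11, SE; edgeR adjusted p = 0.147) unless scaled by library size alone (log2 0.33, edgeR adjusted p = 0.012). The call against empty ended without empty library 3 (log2 0.20, edgeR adjusted p = 0.182), loaded library 1 (log2 0.31, edgeR adjusted p = 0.0503) or loaded library 3 (log2 0.26, edgeR adjusted p = 0.112), with upper-quartile scaling (log2 0.25, edgeR adjusted p = 0.0684) and with DESeq2's Wald test (log2 0.28, DESeq2 adjusted p = 0.0651). Cyp24a1 was under 1 CPM and too low to be tested.

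Among sterol and steroid enzymes, Cyp17a1, which makes androgen precursors (chr19:46655604-46661611), had 13.3, 12.7 and 13.8 CPM in the loaded libraries, 24.8, 25.7 and 24.5 CPM in the empty libraries and 24.7, 23.3 and 24.4 CPM in the untreated libraries. The loaded libraries stood far below the other 6, and empty and untreated libraries overlapped. Cyp17a1 was lower at a log2 fold change of -0.86 ± 0.046 (SE; edgeR adjusted p = 1.16e-14) against untreated and -0.91 ± 0.045 (SE; edgeR adjusted p = 2.34e-15) against empty lesions, both of which held without any one library. Empty against untreated lesions gave a log2 fold change of 0.051 ± 0.044 (SE; edgeR adjusted p = 0.36), not called, but called higher with library size alone (log2 0.15, edgeR adjusted p = 0.00368), upper-quartile scaling (log2 0.12, edgeR adjusted p = 0.0196) and the filter of at least 1 CPM in 3 libraries (log2 0.099, edgeR adjusted p = 0.0427).

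Cyp27a1, which oxidises the sterol side chain (chr1:74752733-74777051), had 16.5, 16.7 and 17.4 CPM in the loaded libraries, 22.7, 23.2 and 24.4 CPM in the empty libraries and 17.2, 17.7 and 15.9 CPM in the untreated libraries. The empty libraries lay above the other 6, and loaded and untreated libraries overlapped. Its log2 fold change was -0.47 ± 0.047 (SE; edgeR adjusted p = 2.39e-09) against empty lesions and 0.47 ± 0.048 (SE; edgeR adjusted p = 2.29e-09) between empty and untreated lesions. Loaded against untreated lesions gave a log2 fold change of -0.0038 ± 0.049 (SE; edgeR adjusted p = 0.962), and with library size alone the sign turned (log2 0.13, edgeR adjusted p = 0.0307).

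Cyp7b1, an oxysterol hydroxylase (chr3:18126114-18297502), had 1.35, 1.37 and 1.29 CPM in the loaded libraries, 1.51, 1.64 and 2.01 CPM in the empty libraries and 1.93, 1.90 and 1.88 CPM in the untreated libraries. The loaded libraries lay below the other 6. Cyp7b1 was lower at a log2 fold change of -0.51 ± 0.13 (SE; edgeR adjusted p = 0.00178) against untreated and -0.36 ± 0.13 (SE; edgeR adjusted p = 0.0229) against empty lesions. The call against empty ended without loaded library 1 (log2 -0.37, edgeR adjusted p = 0.0507), loaded library 3 (log2 -0.34, edgeR adjusted p = 0.0786) or empty library 3 (log2 -0.26, edgeR adjusted p = 0.128). Cyp39a1, another oxysterol hydroxylase, averaged 18.9 ± 0.284, 17.7 ± 0.243 and 25.1 ± 0.766 CPM (SD, n = 3 each) in loaded, empty and untreated libraries, lower at a log2 fold change of -0.41 ± 0.042 (SE; edgeR adjusted p = 5.59e-09) in loaded and -0.51 ± 0.043 (SE; edgeR adjusted p = 5.24e-11) in empty than in untreated lesions.

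Of 20 tested genes of the vitamin D and steroid list, 1 was higher and 5 lower in loaded than in untreated lesions, 3 higher and 8 lower than in empty lesions, and 5 higher and 4 lower between empty and untreated lesions. Called were 30%, 55% and 45%, against a background of 60.1%, 58.1% and 67.0%, and the median log2 fold changes were -0.018, -0.011 and -0.023. Srd5a2, a reductase that activates testosterone, averaged 3.60 ± 0.0914, 1.82 ± 0.335 and 2.25 ± 0.214 CPM (SD, n = 3 each) in loaded, empty and untreated libraries and was higher at a log2 fold change of 0.98 ± 0.11 (SE; edgeR adjusted p = 2.4e-08) in loaded than in empty lesions, where Cyp17a1 was lower. Dhcr7, which uses up the vitamin D precursor, was lower at a log2 fold change of -0.45 ± 0.030 (SE; edgeR adjusted p = 8.26e-13).

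Of 12 tested genes on the list of electron partners and haem enzymes, 2 were higher and 3 lower in loaded than in untreated lesions, 3 higher and 7 lower than in empty lesions, and 5 higher and 3 lower between empty and untreated lesions; Fdx2 was at 0 in all libraries. The shares called were 41.7%, 83.3% and 66.7%, against a background of 60.1%, 58.1% and 67.0%, with median log2 fold changes of -0.016, -0.098 and 0.012. The reductase Por averaged 99.99 ± 2.21, 117 ± 3.24 and 89.4 ± 2.70 CPM (SD, n = 3 each) in loaded, empty and untreated libraries, with a log2 fold change of -0.23 ± 0.033 (SE; edgeR adjusted p = 1.62e-06) against empty lesions. Cyb5a, an electron donor to some P450 enzymes, averaged 109 ± 3.58, 118 ± 4.12 and 167 ± 10.5 CPM and was lower at a log2 fold change of -0.61 ± 0.040 (SE; edgeR adjusted p = 5.81e-12) in loaded than in untreated lesions. Of 17 nuclear receptors and clock factors that regulate P450 genes, 2 were higher and 2 lower in loaded than in untreated lesions, 2 higher and 7 lower than in empty lesions, and 8 higher and 2 lower between empty and untreated lesions. Called were 23.5%, 52.9% and 58.8%, with median log2 fold changes of 0.031, -0.23 and 0.23. Of 29 tested phase II and epoxide enzymes, which act on P450 products, 3 were higher and 12 lower, 9 higher and 9 lower, and 6 higher and 12 lower in the same order of comparisons. That made 51.7%, 62.1% and 62.1% called, with median log2 fold changes of -0.14, -0.0028 and -0.13. For all these lists, 27.8% of tested genes of at least 1 CPM were higher and 32.3% lower in loaded against untreated lesions. The same backgrounds are 33.0% and 25.0% for loaded against empty, and 28.2% and 38.8% for empty against untreated lesions. Over all tested genes the medians were -0.014, 0.015 and -0.016.

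The 63 members under 1 CPM on average all had at least 1 count, and 29 passed the filter for testing. Of the 29, 2 were higher and 4 lower in loaded than in untreated lesions, 2 higher and 6 lower than in empty lesions, and 4 higher and 1 lower between empty and untreated lesions. Together with the 31, that made 11 higher and 14 lower of 60 tested members in loaded against untreated lesions (background over all tested genes 19.0% and 23.3%), 8 and 20 against empty lesions (22.9% and 18.5%), and 14 and 8 between empty and untreated lesions (20.2% and 28.1%). Cyp8b1, of bile acid synthesis and also chosen after its values were seen, had 0.157, 0.175 and 0.202 CPM in the loaded libraries, 0.562, 0.338 and 0.238 CPM in the empty libraries and 0.438, 0.517 and 0.473 CPM in the untreated libraries, with a log2 fold change of -1.41 ± 0.30 (SE; edgeR adjusted p = 0.000321) against untreated and -1.08 ± 0.31 (SE; edgeR adjusted p = 0.00505) against empty lesions. Cyp11a1, which starts steroid synthesis from cholesterol, had 0.637, 0.592 and 0.586 CPM in the loaded libraries, 1.07, 0.921 and 1.07 CPM in the empty libraries and 0.911, 0.693 and 0.855 CPM in the untreated libraries. It was lower in loaded lesions at a log2 fold change of -0.75 ± 0.17 (SE; edgeR adjusted p = 0.000574) against empty lesions. Against untreated lesions the log2 fold change was -0.44 ± 0.18 (SE; edgeR adjusted p = 0.0477), also called. Neither call was checked under other settings. An overlapping gene, Gm17322, held 1525 counts in all against 666 for Cyp11a1, so the Cyp11a1 count can hold reads of Gm17322. Cyp19a1, the aromatase, was not called in any comparison.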

How the data were processed

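Skin polyA RNA was isolated (Qiagen miRNeasy) and libraries were built with the xGen Broad-Range kit of IDT, per the labels' protocols. Reads were aligned with HISAT2 to mm39 and counted with featureCounts, per the submitters' processing notes. Tool versions, annotation and strand setting were not given in the sources used here. The authors deposited raw counts per gene. The deposited gene length equalled the whole span for 99.9% of genes, so introns were counted.

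The analysis used edgeR 4.0.16 in R 4.3.3: filterByExpr (minimum count 10, minimum total 15; 26081 genes), TMM factors, 1 coefficient per group over all 9 libraries and the robust quasi-likelihood test, with Benjamini-Hochberg adjustment over all tested genes and calls under 0.05. Standard errors come from the F statistic. CPM use TMM-scaled library sizes. The fit was tested on simulated data. Depth was 85962714 counts or more per library. Alternatives used DESeq2 1.42.0 and limma 3.58.1. The members and gene lists were chosen with earlier results of these data known. Values per library are given for members called at 1.5-fold or more and for a set list of retinoid, vitamin D, steroid and hydrocarbon genes; other members were named by role.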

Additional observations from a re-analysis of the deposited data

How the results depend on the processing

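Over 31 members and 3 comparisons, 47 of 56 called values kept their call under the 19 settings refitted (scalings, filters, tools, left-out libraries, replicate block), 9 lost it under at least 1, and 0 changed sign. Of 37 values not called, 21 were never called, 15 became called, and 1 was called with the opposite sign (Cyp27a1, loaded against untreated, 0.13 with library size alone); 18 of the 37 changed sign under at least 1 setting. With library size alone, 14 members were higher in loaded and 16 in empty than in untreated lesions, and the counts over all genes for loaded against untreated were 8487 higher and 3973 lower. A 1.5-fold minimum, not among the 19, ended most calls: members higher and lower numbered 1 and 2 for loaded against untreated, 2 and 4 for loaded against empty, and 2 and 1 for empty against untreated lesions; over all genes the counts were 277 and 1576, 1098 and 1291, and 721 and 2440. Why these counts moved was not tested, beyond the stricter rule itself.

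Leaving out each library in turn gave 8 to 9 members higher and 8 to 10 lower for loaded against untreated (4147 to 5517 and 5405 to 6154 over all genes), 5 to 6 and 12 to 15 for loaded against empty (4945 to 6355 and 4205 to 4975), and 9 to 10 and 7 to 8 for empty against untreated lesions (4676 to 5647 and 6255 to 7293). No pairing by replicate number was seen: deviations of same-numbered libraries correlated at -0.10 to 0.096 (9 pairs) and of others at -0.093 to 0.089 (18 pairs). The deviations are from means of only 3 libraries, so these values cannot exclude a pairing. In a fit with a replicate block, the counts of members called were unchanged, 9 and 10, 6 and 14, and 10 and 7, and 0 of 93 member values changed their call. At these depths 34 members did not pass the count filter and were not tested.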
